A study of Mus musculus with 4 samples.

Results

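The aryl hydrocarbon receptor gene Ahr and 4 of its classical target genes, Ahrr, Tiparp, Cyp1a1 and Cyp1b1, were followed in iTreg cells cultured with ferrous sulfate. These 5 genes were chosen by name, as the receptor and the genes most used to read its activity, and were matched by Ensembl ID among the 47729 genes of the deposited table. They and the lists of related genes below were chosen with earlier results of these data known. Shares of called genes therefore describe them and do not test a set. iTreg cells are induced regulatory T cells, made in culture from CD4 T cells that switch on Foxp3. The labels give the spleen of C57BL/6 mice as their source. The methods describe naive CD4 T cells purified from both spleen and lymph nodes and activated through CD3 and CD28. All cultures received 5 ng/mL of TGF-β, 100 U/mL of IL-2 and 5 µg/mL of each of 2 blocking antibodies, against IL-4 and against IFN-γ. FeSO4 cultures were given 50 µM FeSO4 for 4 days and Mock cultures PBS for the same 4 days, with 2 libraries per group. The study asked which genes iron supply regulates in these cells.

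Ahr is a ligand-activated transcription factor of the bHLH-PAS family. Without ligand it waits in the cytosol with Hsp90 and its cochaperones. With ligand, such as dioxin or tryptophan metabolites, it enters the nucleus, pairs with Arnt and binds short DNA elements that induce Cyp1a1, Cyp1b1, Ahrr and Tiparp. The products of these targets close the loop, since the P450 enzymes break ligands down while Ahrr and Tiparp restrain the receptor itself. In CD4 T cells Ahr is known for its part in IL-17, IL-22 and IL-10 producing cells and in gut Treg cells.

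The DNA just upstream of the targets is shown because the targets share the receptor as a regulator and were all lower in FeSO4 by value. RefSeq promoter sequences (GRCm38.p6) were found for 4 of the 5 genes, all but Ahr. Each run below covers the 250 bases before the transcription start that the RefSeq promoter table uses, in the direction of the gene. For Cyp1a1 that start lies inside the gene's RefSeq span, downstream of its first base, and for the other 3 genes the window borders the span. The motif searched was GCGTG on both strands, the core of the Ahr response element, which reads CACGC when it lies on the other strand. Capitals mark the matches. The same 5 letters are also 1 form of the core bound by the HIF factors, so the letters do not tell these factors apart.
Ahrr: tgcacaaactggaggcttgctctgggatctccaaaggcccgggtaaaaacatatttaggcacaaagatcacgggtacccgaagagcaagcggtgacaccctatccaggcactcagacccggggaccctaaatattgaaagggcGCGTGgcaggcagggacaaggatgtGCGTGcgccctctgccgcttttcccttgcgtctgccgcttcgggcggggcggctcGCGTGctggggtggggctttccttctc
Tiparp: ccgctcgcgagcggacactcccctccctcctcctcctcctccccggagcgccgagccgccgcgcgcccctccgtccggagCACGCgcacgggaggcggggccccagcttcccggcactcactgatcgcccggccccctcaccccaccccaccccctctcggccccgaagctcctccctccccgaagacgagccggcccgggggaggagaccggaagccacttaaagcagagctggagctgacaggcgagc
Cyp1a1: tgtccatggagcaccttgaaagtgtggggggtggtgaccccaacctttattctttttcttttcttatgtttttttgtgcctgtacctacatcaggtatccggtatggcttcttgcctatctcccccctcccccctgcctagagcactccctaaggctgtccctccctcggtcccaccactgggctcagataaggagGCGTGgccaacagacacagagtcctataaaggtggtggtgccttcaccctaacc
Cyp1b1: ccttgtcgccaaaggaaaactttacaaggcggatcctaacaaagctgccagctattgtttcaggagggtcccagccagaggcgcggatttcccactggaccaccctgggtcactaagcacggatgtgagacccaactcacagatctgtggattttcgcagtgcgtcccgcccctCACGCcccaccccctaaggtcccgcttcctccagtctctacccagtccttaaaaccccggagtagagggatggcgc

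The Ahrr window lay at chr13:74292332-74292581 (minus strand) and held 3 matches, at bases -107 to -103, -82 to -78 and -27 to -23 from the start site, each on the coding strand. Of 32851 promoter windows of the same length, 28.2% held the core at least once and 2.77% held it 3 times or more. The Tiparp window (chr3:65528197-65528446, plus strand) held 1 match on the other strand at -170 to -166. The Cyp1a1 window (chr9:57697363-57697612, plus strand) held 1 on the coding strand at -54 to -50, and the Cyp1b1 window (chr17:79715062-79715311, minus strand) held 1 on the other strand at -76 to -72. All 4 windows therefore held the core. Their GC content was 60.4% for Ahrr, 75.2% for Tiparp, 53.6% for Cyp1a1 and 58% for Cyp1b1, each above the median of 52.4% over all windows. A match is a description of the letters and not a bound site. The well-known enhancer of Cyp1a1 lies further upstream than this window.

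**Figure D1:**
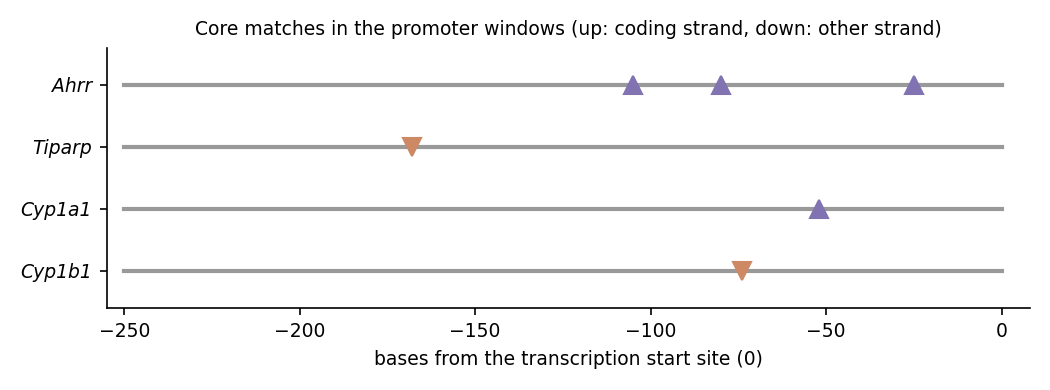
Position of each GCGTG match in the 250 bases before the transcription start of Ahrr, Tiparp, Cyp1a1 and Cyp1b1 (x axis, bases from the start site at 0; up triangles, coding strand; down triangles, other strand). Ahrr has 3 matches and the other genes have 1 each.

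The receptor and most of its targets went opposite ways. Ahr rose in FeSO4 while Ahrr, Cyp1a1 and Cyp1b1 fell, and Tiparp was lower by value without passing the test. All 5 genes passed the filter on low counts. A gene was called at an adjusted p under 0.05 in edgeR's quasi-likelihood test over 13732 genes. By this rule 4 of the 5 genes were called, where 20.0% of all tested genes were. As earlier results were known when the genes were chosen, this comparison is descriptive. The call was higher for 1 gene against 10.9% of all genes, and lower for 3 genes against 9.17%. The direction of each of the 5 genes was the same under every scaling, filter, test and left-out library that was run. All these fits used the same counts, in which the groups did not overlap, so a reversal was hardly possible. At the threshold the study used (unadjusted p under 0.05, with a change of 0.5 or more on the log2 scale in either direction), the same 4 genes were called, where 10.4% of all genes were. The libraries of the groups did not overlap for any of the 5 genes, a pattern that 59.5% of all tested genes shared.

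Ahr (ENSMUSG00000019256, chromosome 12, 35497979 to 35534989, minus strand, GRCm38.p6) had 2894 and 2928 counts in the Mock libraries (replicates 1 and 2 in this order throughout) against 3881 and 3235 with FeSO4. As CPM, the count scaled to a library of standard size with TMM factors, this was 71.3 and 70.0 in Mock against 113 and 87.3 in FeSO4. Both FeSO4 libraries lay above both Mock libraries, and the FeSO4 libraries differed from each other far more than the Mock libraries did. The mean went from 70.6 ± 0.926 to 100.3 ± 18.3 CPM (SD, n = 2 each). The log2 fold change of Ahr was 0.50 ± 0.10 (SE), 1.42-fold, with an adjusted p of 0.00142 in edgeR's quasi-likelihood test. Only 7.73% of tested genes had a higher log2 fold change. The size of the increase rested on FeSO4 replicate 1. Without that library it was 0.31 (adjusted p = 0.0367, edgeR), and over all alternatives the adjusted p of Ahr ranged from 4.3e-07 to 0.0864. The largest belonged to the test of all genes with at least 1 count, in which Ahr was not called.

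Ahrr encodes the Ahr repressor, which competes with the receptor for Arnt and for its DNA elements. Ahrr (ENSMUSG00000021575, chromosome 13, 74211118 to 74292331, minus strand, GRCm38.p6) was at 20.7 and 19.4 CPM in Mock, from 839 and 813 counts, whereas FeSO4 libraries had 14.2 and 12.6 CPM from 488 and 467 counts. The gap between the groups was several times the gap within either. The mean of Ahrr fell from 20.0 ± 0.874 CPM to 13.4 ± 1.15 CPM (SD, n = 2 each). The log2 fold change was -0.58 (SE 0.12; edgeR adjusted p of 0.00339). Of all tested genes, 9.20% had a lower log2 fold change. Ahrr was called under all 13 alternatives, with adjusted p-values from 0.00127 to 0.0468.

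Tiparp encodes an ADP-ribosyltransferase of the PARP family that is induced by the receptor and curbs it. Tiparp (ENSMUSG00000034640, chromosome 3, 65528447 to 65555518, plus strand, GRCm38.p6) had 853 and 816 counts in Mock, and 624 and 516 in FeSO4. This gave 21.0 and 19.5 CPM in Mock against 18.2 and 13.9 CPM in FeSO4. The groups did not overlap, but FeSO4 replicate 1 lay closer to Mock replicate 2 than to the other FeSO4 library. The log2 fold change was -0.34 ± 0.13 (SE, unadjusted p = 0.0205, adjusted p = 0.0832, edgeR), from 20.3 ± 1.07 to 16.1 ± 3.02 CPM (SD, n = 2 each). This value was decided by single libraries. It was -0.535 without FeSO4 replicate 1 (adjusted p = 0.0219) and -0.151 without FeSO4 replicate 2 (adjusted p = 0.594, the largest of its alternatives). Tiparp was called under 3 of its 13 alternatives. Among these was the fit of all 4 libraries blocked on the replicate number (-0.341, adjusted p = 0.0385, edgeR). Exons of Tiparp overlap 4931440P22Rik in the GENCODE M1 annotation. That gene had 39 to 66 counts per library, few beside those of Tiparp, and reads shared by the 2 genes cannot be told apart if strand was not used in counting. Exons of Ahr likewise overlap Gm17436 there.

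Cyp1a1 is the P450 enzyme whose induction is the standard readout of Ahr. Cyp1a1 (ENSMUSG00000032315, chromosome 9, 57687928 to 57703824, plus strand, GRCm38.p6) had 2847 and 2355 counts in Mock and 1525 and 1205 in FeSO4. The levels were 70.1 and 56.3 CPM in Mock against 44.5 and 32.5 CPM in FeSO4. Replicate 1 was the higher library in both groups, and still the lower Mock library lay above the higher FeSO4 library. Cyp1a1 fell from a mean of 63.2 ± 9.79 to one of 38.5 ± 8.45 CPM (SD, n = 2 each), 0.608 of the Mock level. The log2 fold change was -0.72 (SE 0.12; edgeR adjusted p of 0.000633), the smallest adjusted p of the 5 genes, and 6.75% of tested genes had a lower log2 fold change. Its size ranged from -0.95 without FeSO4 replicate 1 to -0.50 without FeSO4 replicate 2, and Cyp1a1 was called in both cases. Over all alternatives the adjusted p ran from 1.02e-07 to 0.0825. Cyp1a1 was not called when all genes with at least 1 count were tested.

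Cyp1b1, a P450 of the same family that also metabolizes steroids and Ahr ligands, fell the most and was the least abundant. Cyp1b1 (ENSMUSG00000024087, chromosome 17, 79706940 to 79715061, minus strand, GRCm38.p6) had 247 and 278 counts in Mock, and 118 and 107 in FeSO4. In CPM it was at 6.08 and 6.64 in Mock, and 3.44 and 2.89 in FeSO4. The groups were well apart, and the spread within each was small. The mean fell from 6.36 ± 0.396 to 3.17 ± 0.391 CPM (SD, n = 2 each), which is 0.496 of the Mock level. On the log2 scale this was -1.01 (SE 0.22; edgeR adjusted p of 0.00401). Of all tested genes, 3.83% had a lower log2 fold change. Cyp1b1 was called under all 13 alternatives, with adjusted p-values from 0.00184 to 0.0442.

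**Figure D2:**
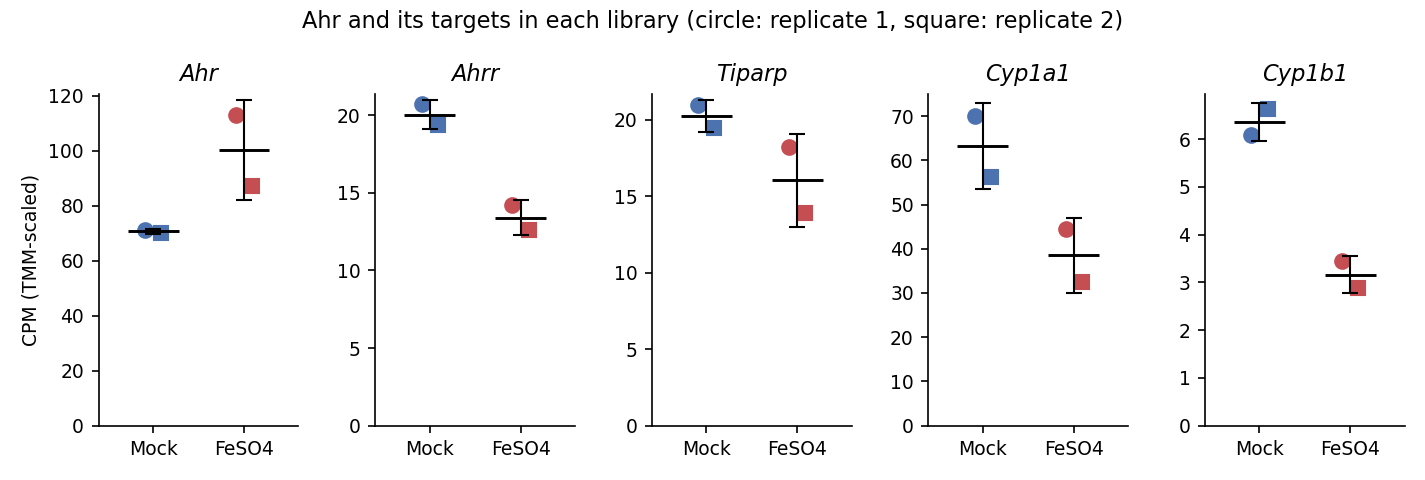
CPM of Ahr, Ahrr, Tiparp, Cyp1a1 and Cyp1b1 (y axes from 0, TMM-scaled) in each Mock and FeSO4 library (circle, replicate 1; square, replicate 2; line, mean; bar, SD of 2 libraries). Ahr is higher in both FeSO4 libraries, at 113 and 87.3 CPM against 71.3 and 70.0, and the other 4 genes are lower in both.

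**Figure D3:**
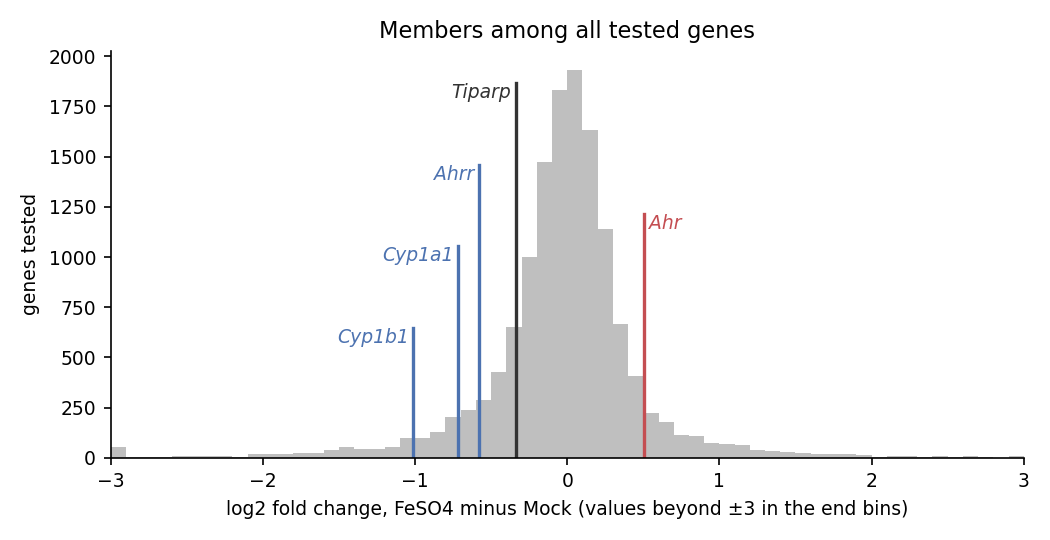
Number of tested genes (y axis) by log2 fold change, FeSO4 minus Mock (x axis), with vertical lines at the values of Ahr and its targets, whose heights carry no value (red, called higher; blue, called lower; black, not called). Cyp1b1 at -1.01 and Cyp1a1 at -0.72 lie in the lower tail, and Ahr at 0.50 in the upper tail.

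Levels of different genes were compared per exon length, as RPKM, the CPM divided by exon length in kilobases, with exon lengths from GENCODE M1. In Mock the order was Cyp1a1 (26.8 and 21.5 RPKM), Ahr (11.5 and 11.3), Tiparp (5.27 and 4.89), Ahrr (2.22 and 2.08) and Cyp1b1 (1.17 and 1.28). No neighbors in this order overlapped between their libraries. In FeSO4 the first places changed, with Ahr at 18.3 and 14.2 RPKM and Cyp1a1 at 17.0 and 12.4 RPKM, and these ranges overlapped. Tiparp (4.57 and 3.50), Ahrr (1.53 and 1.35) and Cyp1b1 (0.661 and 0.555) followed without overlap. The transcript of the enzyme thus exceeded that of its receptor in both Mock libraries, and was below it in both FeSO4 libraries.

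Counts of each target were also set against the Ahr counts of the same library, which needs no scaling between libraries. Per 100 Ahr counts, Cyp1a1 had 98.4 and 80.4 counts in Mock, and 39.3 and 37.2 in FeSO4. Ahrr had 29.0 and 27.8 against 12.6 and 14.4. Cyp1b1 had 8.53 and 9.49 against 3.04 and 3.31. For Tiparp the ratios were 29.5 and 27.9 in Mock, and 16.1 and 16.0 in FeSO4, so that the FeSO4 libraries, which differed in Tiparp CPM, lay together on this scale. The Mock mean was above the FeSO4 mean 2.10-fold for Ahrr, 1.79-fold for Tiparp, 2.34-fold for Cyp1a1 and 2.84-fold for Cyp1b1. Because Ahr itself rose, such a ratio is also lower in FeSO4 for an unchanged gene. Arnt, the partner of Ahr, which was not called, had 94.3 and 108 counts per 100 Ahr counts in Mock, and 56.0 and 73.4 in FeSO4, 1.56-fold. The exact two-sided permutation test gave p = 0.333 for each ratio, the smallest p that 2 libraries against 2 allow.

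**Figure D4:**
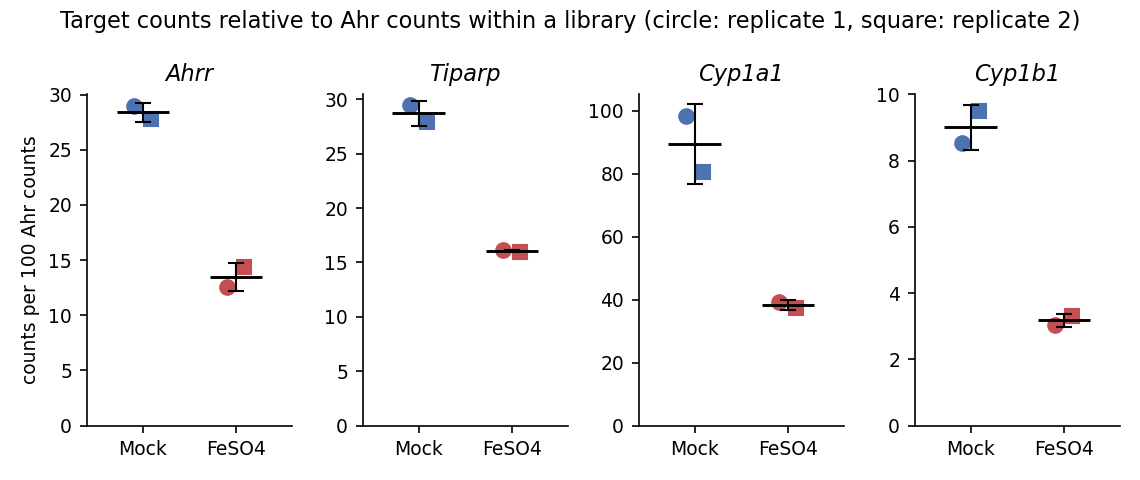
Counts of Ahrr, Tiparp, Cyp1a1 and Cyp1b1 per 100 Ahr counts in the same library (y axes from 0; circle, replicate 1; square, replicate 2; line, mean; bar, SD of 2 libraries). Every ratio is lower in both FeSO4 libraries, as for Cyp1a1 at 39.3 and 37.2 against 98.4 and 80.4 in Mock.

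The partners that hold and carry the receptor were measured next. Of 6 genes of the receptor complex, all tested, 4 were called higher and 0 lower, where 10.9% and 9.17% of all tested genes were, with a median log2 fold change of 0.33 beside -0.00052 over all tested genes. The chaperones Hsp90aa1 and Hsp90ab1 had log2 fold changes of 0.35 (SE 0.06) and 0.31 (SE 0.06), both called higher by edgeR with adjusted p-values of 0.00104 and 0.00149. Ptges3, which encodes the p23 cochaperone, rose by 0.40 (SE 0.07; adjusted p of 0.000407). Arnt, the DNA-binding partner, had 67.2 and 75.7 CPM with PBS against 63.4 and 64.1 CPM with FeSO4 (log2 fold change -0.16 with an SE of 0.08; adjusted p of 0.165). Arnt2, the partner used mainly in neurons, was the remaining called gene, from 0 and 1 counts in Mock and 11 and 10 in FeSO4. It passed the filter through the FeSO4 libraries alone, so it had to differ, and the other calls of the complex number 3. The ratio of its group sums, scaled by library size, was 24.3 with a 95% interval of 3.90 to 1004 that covers counting error only. At the threshold of the study Arnt2 was the 1 gene of the complex called. With any 1 library left out, 3 genes of the complex were called.

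The called genes among other xenobiotic genes under Ahr or NRF2 went the other way from Cyp1a1 and Cyp1b1. Of 10 listed genes only 3 passed the filter, and of these 2 were called higher and 0 lower (10.9% and 9.17% of all tested genes). Nqo1, a quinone reductase induced by both factors, rose from 72.1 and 59.8 CPM in Mock to 129 and 90.8 CPM in FeSO4 (log2 fold change 0.74 with an SE of 0.12; adjusted p of 0.000465, edgeR). Per 100 Ahr counts Nqo1 had 101 and 85.5 counts in Mock, and 114 and 104 in FeSO4. Nfe2l2, which encodes NRF2, rose by 0.39 (SE 0.08; adjusted p of 0.00199). Xdh was at 2.28 to 4.19 CPM with overlapping groups. Cyp1a2, the liver relative of Cyp1a1, had 1 count in 1 FeSO4 library and 0 in the others. Aldh3a1, Ugt1a6a, Ugt1a6b and Gsta2 had at most 1 count in any library, and Gsta1 had 6 counts in Mock replicate 1 alone. A count of 0 allows 3 counts, or 0.0717 to 0.0875 CPM. Ugt1a7c, a glucuronosyltransferase gene, had 7 and 11 counts in Mock, and 0 and 2 in FeSO4, a ratio of the scaled group sums of 0.128 (95% interval 0.0145 to 0.536, counting error only).

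Most of the genes tied to Ahr in T cells that passed the filter were called higher. Of 16 listed genes 13 passed the filter. Among them 8 were called higher and 2 lower, beside 10.9% and 9.17% of all tested genes, and the median log2 fold change was 0.79. Gpr15, a homing receptor for the large intestine, rose from 5.37 and 7.07 CPM to 24.9 and 25.3 CPM (log2 fold change 2.01 with an SE of 0.14; adjusted p of 6.94e-08, edgeR). Il10, the suppressive cytokine, rose from 3.01 and 4.71 to 9.83 and 13.1 CPM (1.57, SE 0.22, at an adjusted p of 8.53e-05). Prdm1, which encodes Blimp-1, rose from 0.690 and 1.03 to 2.68 and 4.05 CPM (1.97, SE 0.36, at an adjusted p of 0.00112). For these genes the groups were far apart.

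Lag3, an inhibitory receptor, rose at a log2 fold change of 1.29 with an SE of 0.31 (edgeR, adjusted p of 0.00738), and Gzmb, which encodes granzyme B, by 0.99 (SE 0.31; adjusted p of 0.0317). Entpd1 and Nt5e encode the ectoenzymes CD39 and CD73, which act in sequence to turn extracellular ATP into adenosine, and they went opposite ways. Entpd1 rose from 16.9 and 19.2 to 25.3 and 27.0 CPM (0.53, SE 0.11, at an adjusted p of 0.00298), and Nt5e fell from 174 and 185 to 124 and 138 CPM (-0.46, SE 0.07, at an adjusted p of 0.000278). Ikzf3, which encodes Aiolos, was the other gene called lower, from 65.2 and 80.8 to 52.7 and 50.4 CPM (-0.50, SE 0.09, at an adjusted p of 0.00128). Maf rose by 0.51 (SE 0.07; adjusted p of 0.000112).

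Of the cytokines most used to read Ahr in helper T cells, Il22 had 1 count in 1 FeSO4 library and Il23r, the receptor gene that goes with them, had 0 counts in all 4 libraries. Il21 had 8 and 0 counts in Mock, and 1 and 15 in FeSO4. Il17a was called higher from 10 and 7 counts in Mock, and 22 and 33 in FeSO4 (adjusted p = 0.0408, edgeR). It too passed the filter through the FeSO4 libraries alone, and the other higher calls of the list number 7. Havcr2 (log2 fold change 0.79 with an SE of 0.32; adjusted p of 0.0971) and Smad1 (-0.09, SE 0.13, at an adjusted p of 0.692) were not called. When every gene with any count entered the test, 4 of this list were called higher and 1 lower. Without Mock replicate 2, 5 were called higher and 2 lower.

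The supply of tryptophan-derived ligands was read from 14 genes, of which 9 passed the filter. Of these 3 were called higher and 0 lower, beside 10.9% and 9.17% of all tested genes, with a median log2 fold change of 0.12. With upper-quartile scaling or library size only, 2 were called higher, and with a fit blocked on the replicate number 4 were. Kynu, the kynureninase that consumes kynurenine, rose from 11.9 and 9.87 to 18.7 and 17.1 CPM (0.72 ± 0.14, SE, adjusted p = 0.00143, edgeR). Slc3a2 and Slc7a5 encode the 2 chains of the LAT1 transporter, which imports tryptophan and kynurenine, and both rose, by 0.34 (SE 0.06; adjusted p of 0.00142) and 0.20 (SE 0.06; adjusted p of 0.0352). The enzymes of the first step from tryptophan to kynurenine had few or no counts. Ido1 had 14 counts in Mock replicate 1 and 0 in the other libraries, Ido2 had 0 in all 4, Tdo2 had 2 to 5, and the ligand-forming oxidase gene Il4i1 had at most 4. Tph1, which turns tryptophan to serotonin synthesis, had 1.70 and 3.49 CPM in Mock against 3.27 and 5.51 CPM in FeSO4, so the groups overlapped. Afmid, Kmo, Kyat1, Kyat3 and Slc36a4 had adjusted p-values from 0.384 to 0.978.

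**Figure D5:**
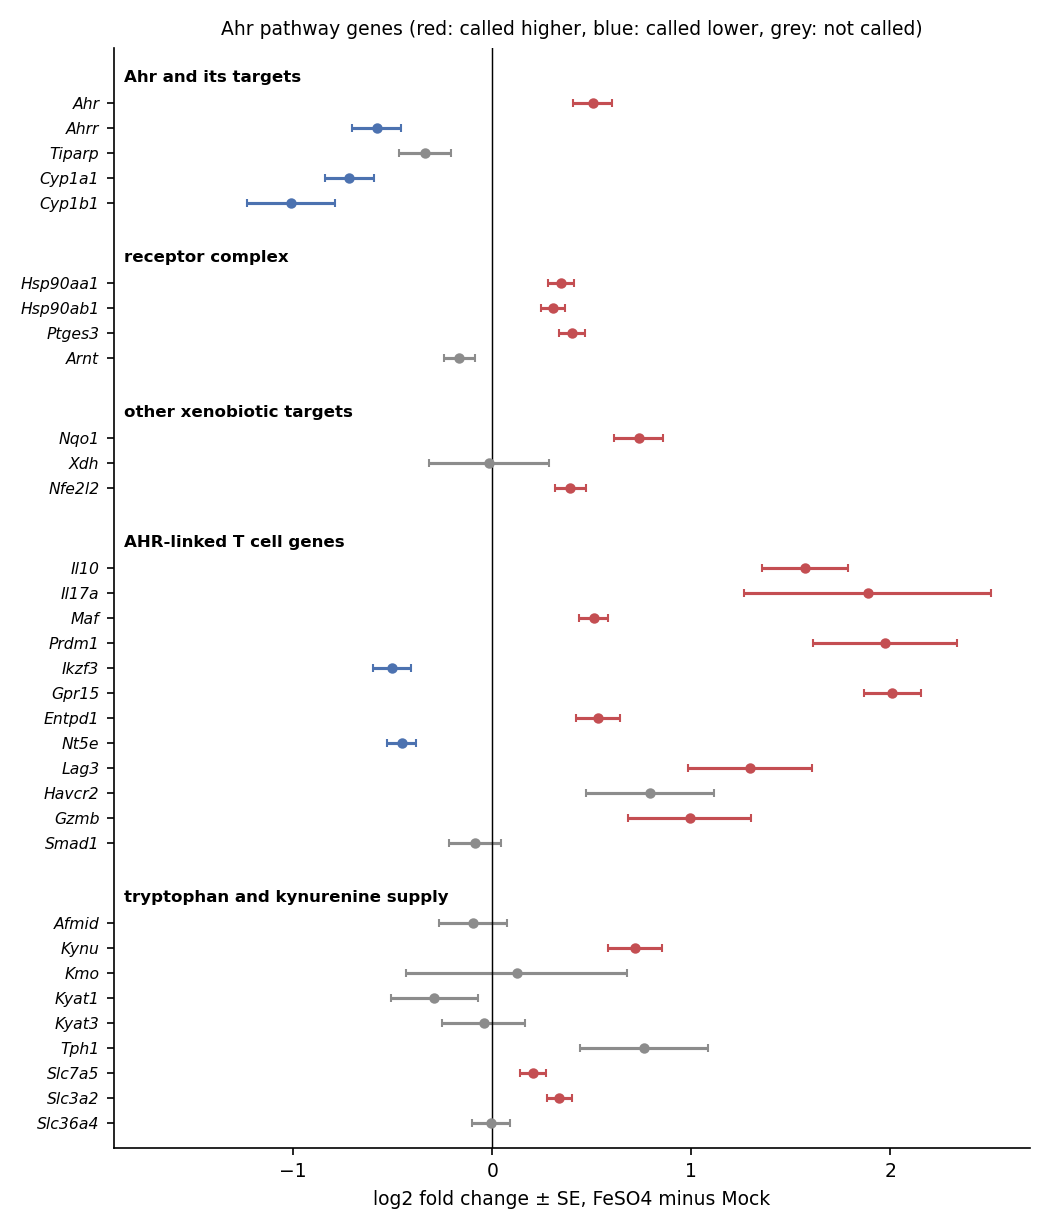
Log2 fold change, FeSO4 minus Mock (x axis, with edgeR estimates as points and SE as bars), of Ahr, its targets and related genes. Shown are tested genes named here from the lists of receptor complex, other xenobiotic, T cell and tryptophan supply genes. Arnt2, which had 1 count in Mock, is left out, and the bHLH-PAS and PARP lists are not drawn. Red is called higher, blue called lower and grey not called. Cyp1a1 and Cyp1b1 lie left of 0 while Nqo1, Gpr15 and Il10 lie right of it.

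The genes whose pattern was most like that of each member were found by the distance between log2 CPM profiles centered on their means, over the 4 libraries and among genes of at least 10 CPM. For Ahr they included Ccr8, Sh3bgrl2, Ppa1 and Gbp8, at distances of 0.0414 to 0.0547 where the median gene was at 0.278. Ccr8, a chemokine receptor of effector Treg cells, went from 119.8 to 178 CPM. For Ahrr they were Grin2d, Fgf13, Clip2, Plekhg3 and Tmcc3 (0.0231 to 0.0417, median gene 0.314). For Tiparp they were Taf1c, Ehd1, Evpl, Irf5 and Gtpbp6 (0.0102 to 0.0446, median gene 0.243). The nearest genes to Cyp1a1 were Smtn, Cd83, Tnf, Plekhg3 and Ccdc125 (0.110 to 0.124, median gene 0.423), so that Cyp1a1 had no neighbor as close as those of Ahr. Tnf, which encodes the cytokine TNF, went from 104 to 57.3 CPM. For Cyp1b1 they were Pacsin1, Igsf9, Phactr2, Cpt1a and Tnik (0.0783 to 0.101, median gene 0.523). Cpt1a, the gate of mitochondrial fatty acid oxidation, went from 208 to 110.3 CPM. With 4 libraries, a likeness rests on few values.

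The libraries held 35183187 to 40859178 reads in gene rows. Markers of T and Treg cells were all present (8 of 8, with a summed level of 3930 to 4285 CPM). Foxp3 itself fell, from 586 and 693 CPM in Mock to 375 and 471 CPM in FeSO4 (log2 fold change -0.60 with an SE of 0.09; adjusted p of 0.000223, edgeR), and its part in the lower target levels was not tested. Of the other 7 genes, Cd3g (0.50) and Cd3d (0.38) rose on the log2 scale (adjusted p of 2.04e-05 and 0.000425, edgeR), while Cd3e (0.13), Cd4 (0.13), Ctla4 (0.17), Il2ra (0.02) and Tnfrsf18 (-0.16) were not called. In such bulk RNA, fewer cells of a type and less RNA per cell cannot be told apart. By staining of Foxp3 protein, the study itself reports little effect of iron sulfate on Foxp3 induction in iTreg cells. Markers of NK cells were at 0 (2 of 2), those of B cells summed to 2.59 to 7.22 CPM, those of myeloid and dendritic cells to 4.94 to 8.87 CPM, and those of CD8 T cells to 9.03 to 11 CPM. Mock replicate 1 alone held 164 counts of Lyz2, 156 of Igkc and 68 of Col3a1, genes of myeloid, B and stromal cells. Without Mock replicate 1, the log2 fold change was -1.08 for Cyp1b1, -0.54 for Ahrr, -0.56 for Cyp1a1, -0.29 for Tiparp and 0.51 for Ahr. With all libraries these were -1.01, -0.58, -0.72, -0.34 and 0.50, so the fall of Cyp1a1 was smaller without it. The part of such cells in the target levels was not tested. The erythroid genes, 2 of 3 measured, summed to 24.9 and 19.7 CPM in Mock, and to 37.6 and 32.6 CPM in FeSO4. Nearly all of this was Hba-a1 (24.5 and 19.6 against 37.5 and 32.5 CPM). Alas2 did not rise, with 16 and 6 counts in Mock, and 4 and 6 in FeSO4. Markers of stroma and endothelium summed to 55.6 and 59.3 CPM in Mock and to 41 and 47.8 CPM in FeSO4. Nearly all of this was Pecam1 (52.4 and 59.0 against 40.7 and 47.4 CPM). Cdh5, the other endothelial gene listed, had only 1 to 5 counts per library, so this sum reads 1 gene and not a cell type. The part of these 2 lists in the lower target levels was not tested.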

How the data were processed

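RNA from 4 iTreg cultures was sequenced, and the authors deposited raw counts per Ensembl gene, not normalized. The submitters' notes name Trim Galore 0.6.7, STAR 2.7.9a, featureCounts and build mm10, while the methods name mm9, STAR and DESeq. Strand setting and annotation are not given in the sources used here. Reads of the 5 unassigned rows (without a feature 4.36 to 6.03%, ambiguous 3.78 to 3.91%, low quality 0.802 to 0.988%, not aligned 1.80 to 2.31%, not unique 4.27 to 4.62%) were left out. Positions are those of RefSeq on GRCm38.p6.

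Genes kept by filterByExpr (13732) were scaled by TMM and tested in R 4.3.3 with the quasi-likelihood test of edgeR 4.0.16, FeSO4 against Mock, two-sided, with p-values adjusted over all of them (Benjamini-Hochberg). An SE is the log2 fold change divided by the square root of F. The alternatives were DESeq2 1.42.0, limma-voom (limma 3.58.1), other scalings, filters and thresholds, a fit blocked on the replicate number, fits that each leave out 1 library, and the earlier edgeR method, which was added after seeing the data. Likeness was the root mean square difference of centered log2 CPM (prior count 2). The biological coefficient of variation was 8.24%. Replicates differed beyond sampling noise (chi-square per degree of freedom 8.85 in Mock and 7.25 in FeSO4). Intervals and count limits cover counting error only.

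On simulated counts for this comparison over 13732 genes, the test called 39 of 64 genes changed by 0.5 on the log2 scale (60.9%). It called 51 of 65 at 1 (78.5%) and 56 of 64 at 2 (87.5%), with 0 in the wrong direction. It also called 19 unchanged genes, a larger share of its calls than the adjusted p threshold of 0.05 allows for. The methods state 2 independent experiments without saying which library belongs to which, so p-values measure the spread between these libraries. The 5 genes and the pathway lists were chosen with earlier results of these data known. The text names the 5 genes, the list genes and the 5 genes of nearest pattern to each. A few genes that fall under this rule are counted but not reported here by name.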

Additional observations from a re-analysis of the deposited data

How the results depend on the processing

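None of the 5 log2 fold changes changed sign under its 13 alternatives, which was hardly possible with groups that did not overlap. Ahrr and Cyp1b1 were called in all of them, Ahr and Cyp1a1 in 12. When all genes with at least 1 count were tested, Ahr was 0.507 (adjusted p = 0.0864) and Cyp1a1 -0.714 (adjusted p = 0.0825), so neither was called, and 2 of the 5 genes were called (Ahrr and Cyp1b1, both lower), as were 828 genes in all against 2750. Tiparp was called with library size only (-0.403, adjusted p = 0.0392), with the replicate block (-0.341, adjusted p = 0.0385) and without FeSO4 replicate 1. The cause was not tested. The replicate block changed no other call among the 5 genes and called 3425 genes in all. Deviations of same-numbered libraries had a correlation of 0.0293 over all tested genes and of 0.22 over the 8521 genes of at least 10 CPM. The methods state pairs from independent experiments, but the labels do not say that a number marks one, so whether the numbers pair the libraries is not settled. With 1 library left out in turn, the log2 fold change ranged from 0.311 to 0.684 for Ahr, -0.664 to -0.490 for Ahrr, -0.535 to -0.151 for Tiparp, -0.953 to -0.503 for Cyp1a1 and -1.14 to -0.883 for Cyp1b1, where the lone library is assumed to vary like the others. Called members numbered 4 or 5 in these fits. Without FeSO4 replicate 1, 1603 genes were called in all. Library size only gave 986 higher and 1809 lower calls against 1491 and 1259, and moved the median of all genes to -0.065. Among the lists, 1 gene of the receptor complex and 1 of the other xenobiotic targets were called at the study's threshold, and 5 T cell genes when all genes with any count were tested. Il22, Il21, Ido1, Ido2, Tdo2 and Il4i1, with at most 15 counts in a library, did not pass the filter and have no test here.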

Other observations

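Relatives of the receptor and of Tiparp were measured as well. Of 17 listed bHLH-PAS genes, which include Arnt, Arnt2 and the Ncoa coactivators, 14 passed the filter, 2 were called higher and 0 lower, beside 10.9% and 9.17% of all tested genes, and the median log2 fold change was -0.03. The number called was 1 with either FeSO4 library left out, with DESeq2 and with at least 10 counts in every library, and 5 (4 higher, 1 lower) with the replicate block. The called genes were Hif1a, the oxygen-regulated subunit that also pairs with Arnt, at 121 and 139 CPM in Mock against 179.9 and 186 in FeSO4 (log2 fold change 0.49, adjusted p of 0.000158, edgeR), and Arnt2, which passed the filter through the FeSO4 libraries alone. Npas2, a clock gene, missed the threshold at 0.39 (adjusted p of 0.0501, edgeR), and so did Arntl2 at 1.67, from 5 and 21 counts in Mock and 33 and 39 in FeSO4 (adjusted p of 0.0503), a gene that likewise passed the filter through FeSO4. The coactivators Ncoa1, Ncoa2 and Ncoa3 were not called (-0.27, -0.13 and -0.07).

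All 14 other PARP family genes passed the filter, with 1 called higher, 3 lower (10.9% and 9.17% of all tested genes) and a median log2 fold change of -0.01. Parp8 fell by 0.60 on the log2 scale (adjusted p of 0.0193, edgeR), Parp6 by 0.55 (adjusted p of 0.00222) and the tankyrase gene Tnks by 0.38 (adjusted p of 0.0176). Parp9, an interferon-induced member, rose by 0.26 (adjusted p of 0.0366, edgeR). This higher call was lost with upper-quartile scaling and with library size only, where 0 genes were called higher and 3 lower. At the study's threshold 0 were called higher and 2 lower. The PARP counts depended on the libraries, since 1 gene was called without Mock replicate 2 and 2 were called without FeSO4 replicate 1. Tiparp had -0.34 on this scale and was not called.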
